A study of Mus musculus with 20 samples.

Results

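The genes described here encode the proteins of oxidative phosphorylation. They were taken from the deposited count table by their symbols: mitochondrial genes whose names start with mt-Nd, mt-Co, mt-Atp or mt-Cytb, and nuclear genes whose names start with Nduf, Uqcr, Cox4 to Cox8 or Atp5 or are Sdha, Sdhb, Sdhc or Sdhd, without symbols marked as pseudogenes by the ending -ps. This gave 111 of the 34255 genes in the table. Of these, 13 lie on the mitochondrial genome and 98 in the nucleus. The nuclear members comprised 42 genes of complex I, 8 assembly factors of complex I (Ndufaf), 4 genes of complex II, 8 of complex III, 19 of complex IV and 17 of complex V. Complexes were assigned by symbol, so that Ndufa4 and Ndufa4l2 counted in complex I. The choice used names only and no measured value. In the annotation, 93 nuclear members were protein coding, 4 (Cox6c2, Ndufa11b, Ndufb4c and Ndufs6b) were processed pseudogenes in spite of their names, and Ndufb1 was listed as a non-coding transcript of a bidirectional promoter.

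The data came from kidneys of healthy male C57BL6/OlaHsd mice, which were wild type and untreated in every group. Laser microdissection of cortical cryosections yielded 4 microvascular compartments, namely arterioles, glomeruli, post-capillary venules and peritubular capillaries, and whole kidney served as the reference, with 4 libraries per group and 20 in all. Libraries were 3′ mRNA libraries (QuantSeq), in which a read falls near the 3′ end of a polyadenylated transcript. Microdissected samples were prepared with a low-input protocol and more PCR cycles than whole kidney, so preparation and compartment cannot be told apart where a compartment is set against whole kidney. Peritubular capillaries were cut from sections stained with a fluorescent lectin (isolectin B4) and the other compartments from hematoxylin-stained sections, so this stain cannot be told apart from that compartment. The area collected was larger for venules and glomeruli than for the other 2 compartments. Each library is identified by its group and its column number in the counts (93, 96, 98 or 100), and values per library are given in that order. By the paper's methods, arterioles, glomeruli and venules of a mouse were cut from the same slide and its peritubular capillaries from another. The labels call the samples biological replicates but name no mouse for each, so compartments of the same mouse were not matched in the reported fits. The p-values measure only how far these samples spread, which may be in part technical.

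Oxidative phosphorylation takes place in the inner mitochondrial membrane. Complex I (NADH dehydrogenase) and complex II (succinate dehydrogenase) pass electrons to ubiquinone, complex III (cytochrome bc1) hands them to cytochrome c, and complex IV (cytochrome c oxidase) reduces oxygen, while complex V (ATP synthase) makes ATP from the proton gradient. The mitochondrial genome encodes core subunits of complexes I, III, IV and V, and the nucleus encodes all of complex II and most subunits of the others. In the kidney, the proximal tubule holds many mitochondria and depends on this pathway for solute transport, whereas endothelium relies largely on glycolysis.

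The counts on the mitochondrially encoded members were concentrated on 6 mRNAs. These were mt-Nd1, mt-Nd2, mt-Nd4 and mt-Nd5 of complex I, mt-Cytb of complex III and mt-Co1 of complex IV, and together they held 99.91% of the counts on the 13 genes. Over all 20 libraries, mt-Nd3 had 9922 counts, mt-Nd6 1068, mt-Atp6 189, mt-Co2 11, mt-Co3 3, mt-Nd4l 3 and mt-Atp8 0. The last 100 bases of 8 mitochondrial transcripts are given below from GRCm38, 5′ to 3′, because these libraries read transcript ends and the genes differed in how unique their ends are. Capitals mark bases inside a run of 100 bases, the read length, that also occurs in the annotated transcript of another gene.
mt-Nd4, chrM:11445-11544, + strand: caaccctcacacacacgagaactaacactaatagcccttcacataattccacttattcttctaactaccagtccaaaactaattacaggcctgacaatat
mt-Cytb, chrM:15189-15288, + strand: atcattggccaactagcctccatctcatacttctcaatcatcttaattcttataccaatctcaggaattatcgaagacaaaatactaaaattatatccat
mt-Nd1, chrM:3608-3707, + strand: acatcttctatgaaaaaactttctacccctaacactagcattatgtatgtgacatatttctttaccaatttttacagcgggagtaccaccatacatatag
mt-Nd5, chrM:13466-13565, + strand: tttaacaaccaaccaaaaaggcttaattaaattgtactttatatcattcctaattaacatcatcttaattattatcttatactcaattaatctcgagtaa
mt-Co1, chrM:6773-6872, + strand: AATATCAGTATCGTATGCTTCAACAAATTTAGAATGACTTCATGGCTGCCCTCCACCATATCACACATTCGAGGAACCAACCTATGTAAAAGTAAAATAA
mt-Co2, chrM:7597-7696, + strand: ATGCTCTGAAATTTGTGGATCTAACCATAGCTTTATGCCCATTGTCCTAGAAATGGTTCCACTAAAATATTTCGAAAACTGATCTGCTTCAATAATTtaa
mt-Co3, chrM:9291-9390, + strand: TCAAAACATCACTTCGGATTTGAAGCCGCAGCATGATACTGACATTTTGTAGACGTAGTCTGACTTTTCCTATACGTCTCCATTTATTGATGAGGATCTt
mt-Atp6, chrM:8508-8607, + strand: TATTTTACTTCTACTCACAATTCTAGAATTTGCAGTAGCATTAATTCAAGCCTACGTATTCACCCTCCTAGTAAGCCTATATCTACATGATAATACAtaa
None of the 100-base windows in the last 300 bases of mt-Nd1, mt-Nd4, mt-Nd5, mt-Nd6 or mt-Cytb occurred in another gene. By contrast, such windows made up 100% of the mt-Co1 end (shared with the pseudogene Gm29216), 99.5% of the mt-Co3 end (Gm28437), and 98.5% each of the ends of mt-Co2 (Gm28661), mt-Atp6 (Gm10925), mt-Nd3 (Gm28438) and mt-Nd4l (Gm10222), all on chromosome 1. The end of mt-Nd2 shared 14.9% of its windows with Gm13339 on chromosome 2. The sources used here do not say how reads that map to several places were counted, and the part of these copies in the low counts was not tested; mt-Co1 had 392054 counts although its whole end is shared. Levels of these shared genes are therefore uncertain. The same holds for mt-Nd5 and mt-Nd6, whose annotated ends overlap on opposite strands at chrM:13552-13565. Among the 93 nuclear protein-coding members, 7 had shared windows in every annotated end, of which Cox7c had the most (59.7 to 92.0% of windows, Gm10012).

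Library totals lay between 4639090 and 12283098 counts. Nuclear members were well covered, with counts in every library for 81 of 98, fewer than 1000 counts over all libraries for 9, and none at all for 1, Cox8c. After the filter on low counts, 8 mitochondrially encoded and 91 nuclear members were tested against whole kidney, and 8 and 90 between compartments. The filter can pass a gene through the group where it is high, so counts over tested members are not counts over all members. Libraries of a compartment varied more than those of whole kidney: over the 79 nuclear members with a mean of at least 10 CPM in every group, the median coefficient of variation was 60.65% in arterioles, 29.61% in glomeruli, 34.82% in peritubular capillaries, 22.48% in post-capillary venules and 8.82% in whole kidney. Scaling also differed, with TMM factors from 0.545 to 1.02 in arterioles, 1.21 to 1.34 in glomeruli, 0.649 to 0.997 in peritubular capillaries, 0.888 to 1.17 in venules and 1.14 to 1.22 in whole kidney.

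The share of all gene counts that fell on these genes was compared first, which scales each library by its own total alone. Such a share also moves with the other RNA in a library. Mitochondrially encoded members took 4.18, 5.12, 5.65 and 6.49% of the counts in arterioles and 3.70, 4.74, 4.55 and 3.94% in glomeruli. In peritubular capillaries they took 6.47, 5.79, 5.46 and 4.02%, in post-capillary venules 11.6, 9.80, 10.6 and 9.92% and in whole kidney 11.54, 12.2, 11.6 and 11.1%. Arterioles, glomeruli and peritubular capillaries overlapped with each other and lay below every venule and whole kidney library, while venules and whole kidney overlapped. The means were 5.36% ± 0.967, 4.23% ± 0.493, 5.43% ± 1.03, 10.5% ± 0.835 and 11.6% ± 0.460 (SD, n = 4 each) in that order of groups. In bulk tissue, fewer cells of a type and less RNA per cell cannot be told apart.

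Nuclear members followed another order. They took 2.61, 2.44, 2.89 and 2.80% of the counts in arterioles and 3.13, 2.67, 2.62 and 1.99% in glomeruli, against 4.05, 4.24, 4.35 and 4.56% in peritubular capillaries, 4.06, 4.14, 4.49 and 4.23% in post-capillary venules and 4.57, 4.04, 4.07 and 4.01% in whole kidney. Here peritubular capillaries overlapped with venules and whole kidney, and arterioles and glomeruli lay below all 3 without overlap. The group means were 2.68% ± 0.201, 2.60% ± 0.472, 4.30% ± 0.212, 4.23% ± 0.186 and 4.17% ± 0.267 (SD, n = 4 each).

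The lower nuclear share in arterioles and glomeruli was found for the larger complexes alike. Complex I genes took 0.764 to 0.953% of the counts in arterioles and 0.693 to 0.964% in glomeruli, against 1.27 to 1.36% in peritubular capillaries, 1.14 to 1.36% in venules and 1.28 to 1.38% in whole kidney. For complex IV the ranges were 0.567 to 0.624%, 0.425 to 0.669%, 0.933 to 1.13%, 0.938 to 1.15% and 0.942 to 1.10%, and for complex V 0.738 to 1.03%, 0.547 to 0.987%, 1.24 to 1.5%, 1.24 to 1.34% and 1.17 to 1.41%, in the same order of groups. Complex III was split the same way. In complexes I, III, IV and V every arteriole and glomerular library lay below every library of the other 3 groups. Complex II took 0.0506 to 0.15% in arterioles and 0.141 to 0.167% in whole kidney, and the assembly factors of complex I took 0.0166 to 0.0301% and 0.0263 to 0.0290%, and for both these groups overlapped.

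The ratio of the mitochondrially encoded to the nuclear sum therefore separated peritubular capillaries from venules and whole kidney. From arterioles it separated them only narrowly (1.598 in capillary 93 against 1.61 in arteriole 93). It was 1.598, 1.37, 1.26 and 0.882 in peritubular capillaries, 1.18, 1.78, 1.73 and 1.99 in glomeruli and 1.61, 2.10, 1.96 and 2.32 in arterioles. In post-capillary venules it was 2.86, 2.37, 2.35 and 2.35, and in whole kidney 2.53, 3.02, 2.84 and 2.77. Peritubular capillaries lay below every arteriole, venule and whole kidney library and overlapped with glomeruli, and arterioles and glomeruli lay below every venule and whole kidney library. Neighbours in this order that overlapped were peritubular capillaries and glomeruli, glomeruli and arterioles, and venules and whole kidney. Mean ratios were 1.28 ± 0.299 in peritubular capillaries, 1.67 ± 0.344 in glomeruli, 1.99 ± 0.300 in arterioles, 2.48 ± 0.254 in venules and 2.79 ± 0.207 in whole kidney (SD, n = 4 each). With structural subunits alone, without assembly factors and the isoform families, the mean ratios were 1.76, 2.25, 2.67, 3.38 and 3.77 in the same order of groups.

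**Figure D1:**
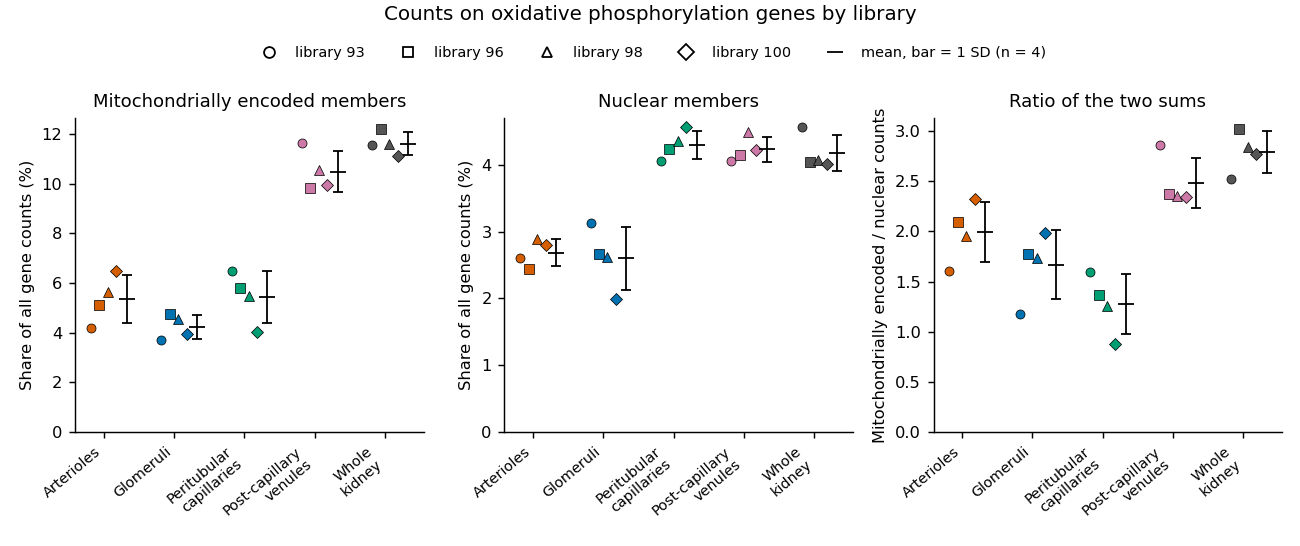
Percentage of all gene counts on mitochondrially encoded members (left) and nuclear members (middle) and the ratio of the 2 sums (right), 1 point per library with the mean and a bar of 1 SD for each of the 5 groups (n = 4). Peritubular capillaries sit with arterioles and glomeruli on the left, with venules and whole kidney in the middle, and have the lowest mean ratio, 1.28, on the right.

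Markers of other cell types differed between the groups as well, in another order than either sum. The 15 proximal tubule markers, all of which were found and none of which was at 0 throughout a group, took 0.625 to 1.69% of the counts in arterioles, 0.931 to 1.30% in glomeruli, 7.43 to 9.66% in peritubular capillaries, 3.15 to 3.64% in post-capillary venules and 5.02 to 5.44% in whole kidney. The 13 pan-endothelial markers, also all found, took 0.326 to 0.427%, 0.415 to 0.522%, 0.0462 to 0.105%, 0.0882 to 0.147% and 0.0525 to 0.0600% in the same order, so that the peritubular capillary libraries overlapped with whole kidney in the markers of their labelled cell type. Smooth muscle markers (10) took 2.05 to 3.53% in arterioles and at most 0.383% elsewhere, and podocyte markers (10) took 1.04 to 1.25% in glomeruli and at most 0.159% elsewhere. Erythrocyte markers (6) took 1.07 to 4.16% in arterioles, 1.38 to 1.75% in glomeruli, 0.0812 to 0.182% in peritubular capillaries, 1.98 to 4.87% in venules and 0.239 to 0.460% in whole kidney. The part of these cells in the results on oxidative phosphorylation was not tested.

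Each mitochondrially encoded mRNA was then compared with whole kidney by edgeR, with a gene called at an FDR under 0.05 over all 13813 genes tested. Levels are in counts per 1000000 counts of the TMM-scaled library total (CPM). mt-Nd4 (complex I, chrM:10167-11544) stood at 22742, 31699, 16181 and 26830.2 CPM in arterioles, 10193, 12296, 13059.8 and 11636 in glomeruli and 21530.4, 18763, 23076 and 19795 in peritubular capillaries. mt-Nd4 levels in post-capillary venules were 42895, 30876, 29044 and 32907 CPM and those in whole kidney 31099, 38933, 36915 and 35818. Every glomerular and peritubular capillary library lay below every whole kidney library, and 3 of 4 arteriole libraries did. It fell in glomeruli (log2 fold change -1.60 ± 0.15 SE, FDR 4.68e-09), arterioles (log2 fold change -0.55 ± 0.15 SE, FDR 0.0143) and peritubular capillaries (log2 fold change -0.78 ± 0.15 SE, FDR 0.0109), and in venules the log2 fold change was -0.07 ± 0.15 SE.

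mt-Nd1 (complex I, chrM:2751-3707) stood at 12033, 19097, 14418 and 15358 CPM in arterioles, 6088, 8939, 8272 and 7249.7 in glomeruli and 13409, 12482, 15644 and 15160.3 in peritubular capillaries. mt-Nd1 levels in post-capillary venules were 23734, 24057, 22578 and 32233 CPM and those in whole kidney 23293, 20612, 20879.8 and 20869. It fell in glomeruli (log2 fold change -1.49 ± 0.15 SE, FDR 2.35e-08) and arterioles (log2 fold change -0.49 ± 0.15 SE, FDR 0.0302). All 4 peritubular capillary libraries lay below whole kidney as well, but the difference did not pass the test (log2 fold change -0.60 ± 0.15 SE, FDR 0.136). mt-Cytb, the cytochrome b of complex III (chrM:14145-15288), stood at 12022, 30422, 17468 and 21418 CPM in arterioles, 6538, 10186, 7817 and 5558 in glomeruli and 15380.0, 11967, 17286 and 16133 in peritubular capillaries. mt-Cytb levels in post-capillary venules were 24398, 25361, 24463 and 27695 CPM and those in whole kidney 25103, 27526, 25011 and 23269.6. Glomeruli were again below all whole kidney libraries (log2 fold change -1.75 ± 0.19 SE, FDR 5.9e-08), and peritubular capillaries too, without passing the test (log2 fold change -0.73 ± 0.18 SE, FDR 0.133). The arteriole libraries were spread over a wide range and arteriole 96 lay above every whole kidney library.

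mt-Nd2 (complex I, chrM:3914-4951) stood at 5422, 7633, 4324 and 7695 CPM in arterioles, 3027, 4282, 3325 and 6184 in glomeruli and 9965, 10720.3, 5627 and 5398 in peritubular capillaries. mt-Nd2 levels in post-capillary venules were 20069.5, 16179, 8664 and 11101 CPM and those in whole kidney 10730.2, 15957, 10516 and 9422. It fell in glomeruli (log2 fold change -1.47 ± 0.25 SE, FDR 0.000316) and arterioles (log2 fold change -0.89 ± 0.25 SE, FDR 0.0186). The remaining pair showed another order among the compartments. mt-Nd5 (complex I, chrM:11742-13565) stood at 1183, 1831, 1543 and 1749.8 CPM in arterioles, 828, 981, 1113 and 978 in glomeruli and 2135, 2038, 2399 and 3011 in peritubular capillaries. mt-Nd5 levels in post-capillary venules were 3374, 2783, 2709 and 3765 CPM and those in whole kidney 1877, 2066, 1903 and 1793. mt-Co1, the catalytic subunit of complex IV (chrM:5328-6872), stood at 1209, 3401, 2003 and 1949 CPM in arterioles, 1138, 1551, 1089.7 and 1155 in glomeruli and 2602, 2566, 3369 and 2620.0 in peritubular capillaries. mt-Co1 levels in post-capillary venules were 2993, 3476, 3145 and 4384 CPM and those in whole kidney 2392, 2581, 2191 and 2174. Both fell in glomeruli (mt-Nd5 log2 fold change -0.97 ± 0.24 SE, FDR 0.0159; mt-Co1 log2 fold change -0.92 ± 0.26 SE, FDR 0.0355). In venules all 4 libraries were above whole kidney for mt-Nd5 (log2 fold change 0.73 ± 0.24 SE, FDR 0.293) and for mt-Co1 (log2 fold change 0.58 ± 0.26 SE, FDR 0.434), and neither passed the test. The levels of mt-Nd3 and mt-Nd6 were between 0 and 249.8 CPM in every library, and no difference from whole kidney was called for either.

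**Figure D2:**
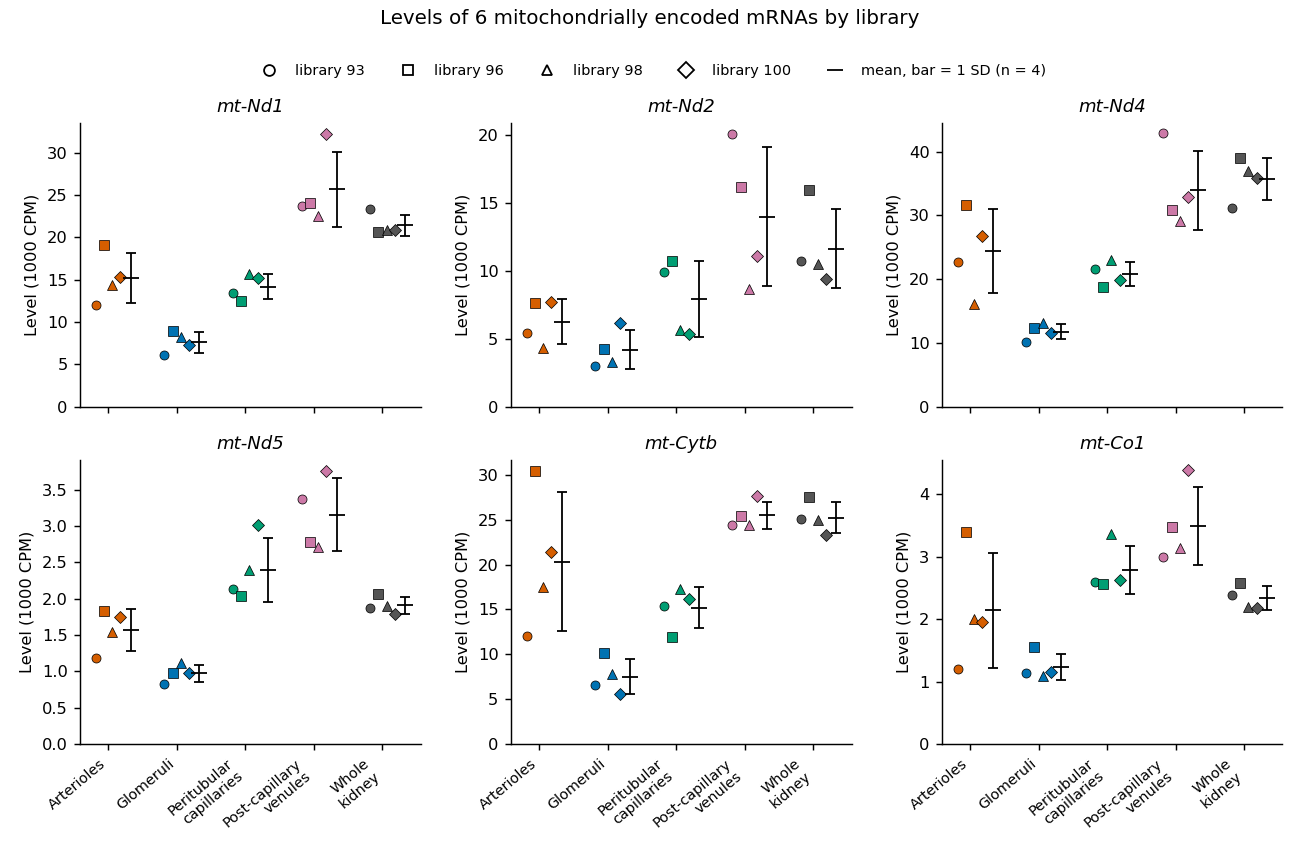
Levels of 6 mitochondrially encoded mRNAs in units of 1000 CPM on linear axes, 1 point per library with the mean and a bar of 1 SD for each of the 5 groups (n = 4). Glomerular libraries lie below all whole kidney libraries in all 6 panels, and the highest arteriole point is library 96 in all but the mt-Nd2 panel.

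Of the 8 tested mitochondrially encoded members, 6 were thus called lower in glomeruli, where 1.5% of all tested genes were called lower and 1.59% higher. In arterioles 3 were called lower, where 5.55% of all genes were lower and 5.78% higher. In peritubular capillaries mt-Nd4 was 1 of the few genes called, where 0.0145% of all genes were lower and 0.0869% higher. In venules none of the 8 was called by edgeR, where 0.0217% of all genes were lower and 0.217% higher; 2 were higher at an unadjusted p under 0.05, and DESeq2 called 0. The median log2 fold change of the 8 was -1.54 in glomeruli, -0.66 in peritubular capillaries, -0.29 in arterioles and 0.26 in venules, against medians over all tested genes of 0.26, 0.18, 0.22 and 0.19. The calls in glomeruli were also made with DESeq2 size factors in place of TMM (6 lower), whereas those in arterioles and peritubular capillaries were not (0 in each). In venules the direction depended on the scale. The share of counts, scaled by the library total alone, had a lower mean than in whole kidney, and the TMM-scaled median was above 0. With no filter on low counts the median was -0.03.

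Between microdissected compartments, where library preparation was the same though the stain differed for peritubular capillaries, several mitochondrially encoded mRNAs were lower in glomeruli. A log2 fold change between compartments is that of glomeruli or arterioles over the group they are set against, and of peritubular capillaries over venules, so that a negative value is a lower level in the former; arterioles are set over glomeruli. Among the 8 tested members, 6 were lower in glomeruli than in peritubular capillaries, where 2.29% of the 12179 genes tested were lower and 2.2% higher; DESeq2 called 2 of them, and 4 to 6 were called when each library was left out in turn. The same number was lower in glomeruli than in venules, where 0.731% of all genes were lower and 0.493% higher. Against arterioles 3 were lower in glomeruli (mt-Cytb, mt-Nd4 and mt-Nd1), where 1.33% of all genes were higher in arterioles and 0.862% lower. The share of counts on mitochondrially encoded members overlapped between glomeruli (3.70 to 4.74%), peritubular capillaries (4.02 to 6.47%) and arterioles (4.18 to 6.49%). TMM factors of glomeruli (1.21 to 1.34) lay above those of both, so the size of these differences rested in part on the scaling. Sizes ranged from mt-Nd4 in glomeruli against peritubular capillaries (log2 fold change -0.82 ± 0.17 SE, FDR 0.00158) to mt-Cytb against venules (log2 fold change -1.76 ± 0.21 SE, FDR 4.58e-07).

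Some mitochondrially encoded mRNAs were higher in venules than in arterioles or peritubular capillaries. Arterioles had lower mt-Nd1 (log2 fold change -0.76 ± 0.17 SE, FDR 0.00666), mt-Nd2 (log2 fold change -1.16 ± 0.27 SE, FDR 0.00657) and mt-Nd5 (log2 fold change -1.01 ± 0.28 SE, FDR 0.0321) than venules, where 1.87% of all genes were lower in arterioles and 2.5% higher. Peritubular capillaries had lower mt-Nd1 (log2 fold change -0.86 ± 0.17 SE, FDR 0.00908) and mt-Nd4 (log2 fold change -0.71 ± 0.17 SE, FDR 0.0418) than venules, where 0.328% of all genes were lower and 0.0821% higher. With DESeq2 size factors, none of these 5 differences from venules was called. Leaving out venule 100 also removed both calls between peritubular capillaries and venules, and leaving out venule 93 left 1 of the 3 between arterioles and venules. No difference between arterioles and peritubular capillaries was called in the 8 by edgeR, where 4.98% of all genes were lower in arterioles and 6.22% higher; at an unadjusted p under 0.05, 2 were higher and 1 lower, and DESeq2 called 1 higher.

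Nuclear members were next compared with whole kidney by complex. In glomeruli most had a negative log2 fold change, 82 of the 91 tested, with a median of -0.87 against 0.26 over all genes. The share of all genes with a negative value is not given here. By complex the medians were -0.80 for complex I (39 tested), -0.98 for complex II (4), -0.96 for complex III (8), -0.80 for complex IV (15) and -1.0 for complex V (17), and -1.01 for the 8 assembly factors. Only 3 passed the test: Cox7c of complex IV (log2 fold change -1.65 ± 0.41 SE, FDR 0.0164), Atp5b, the catalytic beta subunit of ATP synthase (log2 fold change -1.28 ± 0.31 SE, FDR 0.0115), and Atp5g3, a source of its membrane ring subunit c (log2 fold change -1.10 ± 0.27 SE, FDR 0.016). The number depended strongly on the libraries fitted. In all, 58 of the 91 had every glomerular library below every whole kidney library, where 18% of all tested genes did, and in a fit of only these 8 libraries 54 of 89 were called lower, where 10.8% of all genes were. Leaving out glomerular 100 from the fit of all libraries left 0 calls, and leaving out kidney 93 left 1.

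The TMM-scaled arteriole log2 fold changes of nuclear members were spread around 0, with 48 negative and 43 positive and a median of -0.09 against 0.22 over all genes. With DESeq2 size factors this median was 0.15 against 0.39, so its sign rested on the scaling. The share of counts on nuclear members, scaled by the library total alone, was clearly lower in arterioles, with means of 2.68% against 4.17% in whole kidney. How far arterioles differed from whole kidney therefore depended on the scale and on summing counts or taking a median over genes. Of the 91, 2 were called lower, a smaller share than the 5.55% of all genes called lower. DESeq2 called 7 lower and 1 higher, for which no share of all genes is given. Uqcrc2, a core protein of complex III (chr7:120635176-120659524), stood at 204, 11.9, 167 and 114 CPM in arterioles and 334, 391, 427 and 433 in whole kidney (log2 fold change -1.67 ± 0.53 SE, FDR 0.036). Atp5c1, the gamma subunit of ATP synthase that turns with the ring (chr2:10056016-10080510), stood at 176, 10.6, 145 and 113 CPM in arterioles and 383, 385, 360.1 and 342 in whole kidney (log2 fold change -1.73 ± 0.54 SE, FDR 0.0349). Neither gene overlapped between the groups, and arteriole 96 had the lowest level of both. Leaving out any of the 4 whole kidney libraries left 0 calls, and leaving out arteriole 93 or arteriole 100 gave 4 and 6.

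In peritubular capillaries 71 of the 91 nuclear members had a positive log2 fold change, with a median of 0.44 against 0.18 over all genes, opposite in sign to the mitochondrially encoded members in the same libraries. The sign of both medians was the same with DESeq2 size factors (0.43 and -0.70). The median was 0.68 for complex V, 0.49 for complex I, 0.38 for complex III, 0.23 for complex II, 0.21 for complex IV and -0.17 for the assembly factors. None was called by edgeR or DESeq2. At an unadjusted p under 0.05, 13 were higher and 1 lower, and the share of all genes at that p is not given here. For 24 of the 91, every capillary library was above every whole kidney library, where 6.08% of all genes were, and in a fit of only these 8 libraries 9 were called higher, where 2.85% of all genes were. In venules 71 of the 91 were positive as well, so this number was not particular to peritubular capillaries. The share of all genes with a positive log2 fold change is not given here for either group. The venule median was 0.23 against 0.19, none of the 91 was called by edgeR or DESeq2, and 3 were higher at an unadjusted p under 0.05. In a fit of only the 8 libraries 6 were called higher in venules, where 2.9% of all genes were.

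**Figure D3:**
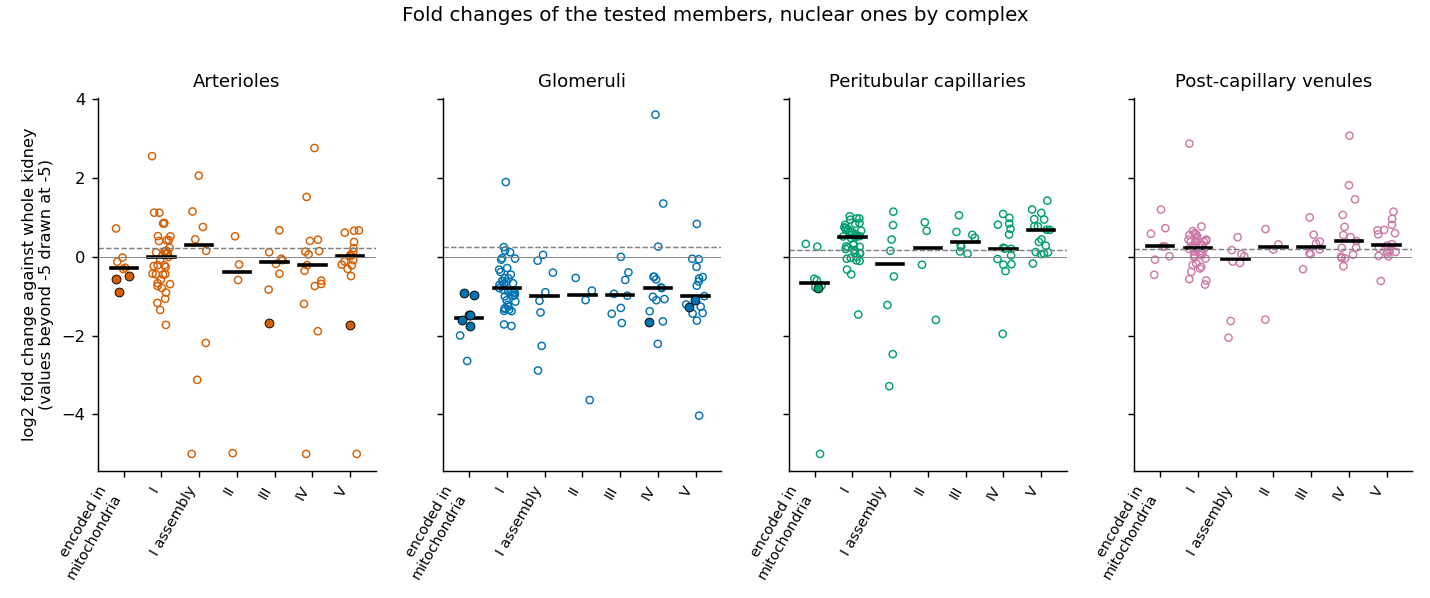
Log2 fold change against whole kidney of each tested member in the 4 compartments, with mitochondrially encoded members first and nuclear members by complex; filled points were called at an FDR under 0.05, black bars are medians of the members, the dashed line is the median of all tested genes, and values beyond -5 are drawn at -5. Nuclear medians lie below the dashed line in glomeruli for every complex and above it in peritubular capillaries for complexes I, II, III, IV and V, whereas the mitochondrially encoded median lies below the line in arterioles, glomeruli and peritubular capillaries.

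The nuclear members differed most often between glomeruli and peritubular capillaries. Of the 90 tested, 19 were called lower in glomeruli and 0 higher, where 2.29% of all genes were lower and 2.2% higher. With all 20 libraries in the fit 38 were called lower, and the share of all genes in that fit is not given. Of the 90, 53 had every glomerular library below every capillary library, where 7.57% of all genes did. The median log2 fold change was -1.30 against 0.06 over all genes. By complex it was -1.21 for complex I, -1.58 for complex II, -1.33 for complex III, -1.34 for complex IV and -1.34 for complex V. All 19 called genes had their libraries apart in the 2 groups. They included 4 of complex I (Ndufb9, Ndufb8, Ndufb6 and Ndufv3), Sdhb, Uqcr10, 8 of complex IV (Cox4i1, Cox6a1, Cox6c, Cox7c, Cox8a, Cox7a2, Cox6b1 and Cox5b) and 5 of complex V (Atp5g3, Atp5b, Atp5a1, Atp5k and Atp5j2). When each library was left out in turn, 7 of the 19 kept their call throughout and the number called was between 7 and 16, the lowest without glomerular 100. TMM factors were higher in glomeruli (1.21 to 1.34) than in peritubular capillaries (0.649 to 0.997), so fold sizes depended on the scaling. Scaled by library totals alone, nuclear members took 1.99 to 3.13% of the counts in glomeruli and 4.05 to 4.56% in peritubular capillaries, without overlap. Proximal tubule markers took 0.931 to 1.30% of the counts in the glomerular and 7.43 to 9.66% in the capillary libraries, without overlap, and their part in these differences was not tested.

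Among these, Atp5g3 (chr2:73908447-73911326) had the smallest p. It stood at 2013, 2533, 1513 and 1226 CPM in arterioles, 1012, 926, 764 and 647 in glomeruli and 2392, 2243, 3243 and 4323 in peritubular capillaries. Atp5g3 levels in post-capillary venules were 1726, 2202, 1682 and 2371 CPM and those in whole kidney 2115, 1843, 1568 and 1635. The 4 glomerular libraries were the lowest of all 20, and the difference from peritubular capillaries was 3.64-fold (log2 fold change -1.86 ± 0.32 SE, FDR 0.000126). Atp5b (chr10:128083273-128090391) stood at 927, 1754, 1218 and 1552 CPM in arterioles, 868, 559, 707 and 440.1 in glomeruli and 1423, 1826, 1676 and 3558 in peritubular capillaries. Atp5b levels in post-capillary venules were 1154, 1657, 1485 and 2004 CPM and those in whole kidney 1726, 1443, 1581 and 1503. Capillary 100 was the highest of all 20, and the glomerular libraries were the lowest (log2 fold change -1.72 ± 0.35 SE, FDR 0.00152). Cox4i1, a subunit of complex IV that binds regulatory nucleotides (chr8:120668222-120674207), stood at 1029, 1244, 588 and 456 CPM in arterioles, 438, 339, 463 and 588 in glomeruli and 1067, 1426, 1819 and 2439 in peritubular capillaries. Cox4i1 levels in post-capillary venules were 894, 1128, 908 and 1059.5 CPM and those in whole kidney 1154, 994, 870.3 and 825. Here too the highest level of all was in capillary 100, and glomeruli and peritubular capillaries did not overlap (log2 fold change -1.88 ± 0.38 SE, FDR 0.00139). Cox6a1 (chr5:115345642-115348981), another small subunit of complex IV, stood at 981, 1372, 987 and 1218 CPM in arterioles, 849, 702, 759.7 and 594 in glomeruli, 1533, 1749.6, 2246 and 3236 in peritubular capillaries, 1421, 1865, 1263 and 1285 in post-capillary venules and 1078, 1028, 974 and 1049.6 in whole kidney (log2 fold change -1.59 ± 0.33 SE, FDR 0.00163).

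Sdhb, the iron-sulfur subunit of succinate dehydrogenase (chr4:140961203-140979193), stood at 369.8, 595, 254 and 254 CPM in arterioles, 373, 129, 191 and 342 in glomeruli and 644, 982, 1027 and 1409 in peritubular capillaries. Sdhb levels in post-capillary venules were 786, 564, 636 and 767 CPM and those in whole kidney 485, 587, 569 and 573. It was 3.92-fold higher in peritubular capillaries than in glomeruli (log2 fold change -1.97 ± 0.45 SE, FDR 0.0047) and was also higher than in arterioles (log2 fold change -1.46 ± 0.44 SE, FDR 0.0268). Ndufb9, an accessory subunit of complex I (chr15:58933756-58939488), stood at 1052, 675, 446 and 355 CPM in arterioles, 358, 268, 284 and 279 in glomeruli and 991, 765, 1391 and 1116 in peritubular capillaries. Ndufb9 levels in post-capillary venules were 886, 558, 715 and 762 CPM and those in whole kidney 554, 663, 597 and 572. Arterioles ran from within the glomerular range to within the capillary range, and the glomerular and capillary libraries did not overlap (log2 fold change -1.84 ± 0.41 SE, FDR 0.00394). Uqcr10, a small subunit of complex III (chr11:4701973-4704342), stood at 566, 448, 283 and 263 CPM in arterioles, 391, 263, 325 and 421 in glomeruli, 686, 727, 1184 and 1275 in peritubular capillaries, 777, 745, 801 and 834 in post-capillary venules and 707, 734, 656 and 678 in whole kidney and was lower both in glomeruli (log2 fold change -1.47 ± 0.41 SE, FDR 0.0287) and in arterioles (log2 fold change -1.31 ± 0.41 SE, FDR 0.0319) than in peritubular capillaries.

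The other called genes were 2.30 to 4.82-fold lower in glomeruli than in peritubular capillaries. Ndufb6, an accessory subunit of complex I, had the largest difference of all 19 and stood at 28.4, 75.7, 126 and 31.9 CPM in glomeruli and 187, 359, 464 and 253 in peritubular capillaries (log2 fold change -2.27 ± 0.65 SE, FDR 0.036). Ndufb8, of the same membrane arm, stood at 162, 589, 472 and 427 CPM in arterioles, 379.8, 433, 401 and 238 in glomeruli and 889, 1159, 1243 and 812 in peritubular capillaries. Ndufb8 levels in post-capillary venules were 596, 588, 695 and 660.1 CPM and those in whole kidney 695, 742, 689.6 and 729; the 4 capillary libraries were the highest of all 20, and it was called against both glomeruli (log2 fold change -1.50 ± 0.42 SE, FDR 0.0313) and arterioles (log2 fold change -1.31 ± 0.42 SE, FDR 0.0375). Cox7c stood at 249.6, 1021, 577 and 274 CPM in arterioles, 247, 426, 258 and 98.8 in glomeruli, 794, 719, 995 and 801 in peritubular capillaries, 746, 975, 1009 and 1047 in post-capillary venules and 1028, 612, 804 and 784 in whole kidney, and glomerular 100 was the lowest (log2 fold change -1.68 ± 0.46 SE, FDR 0.0259). Its end is among those shared with a copy elsewhere.

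In complex IV, Cox6c stood at 1569, 1197, 789 and 895 CPM in arterioles, 686, 840.3, 706 and 502 in glomeruli, 1305, 1449, 1959 and 3345 in peritubular capillaries, 1721, 1606, 1623 and 1928 in post-capillary venules and 1039.5, 953, 1041 and 1033 in whole kidney and was lower in glomeruli than in both peritubular capillaries (log2 fold change -1.56 ± 0.35 SE, FDR 0.00382) and venules (log2 fold change -1.34 ± 0.35 SE, FDR 0.039). Every annotated end of Cox6c shares 22.9% of its windows with the pseudogene Cox6c2. Cox8a stood at 1277, 2490.3, 863 and 986 CPM in arterioles, 716, 818, 733 and 659 in glomeruli and 1382, 1062, 1852 and 2503 in peritubular capillaries. Cox8a levels in post-capillary venules were 1281, 1975, 1239 and 1603 CPM and those in whole kidney 1129.8, 1169, 922 and 941, and its glomerular libraries were the lowest of all 20 (log2 fold change -1.21 ± 0.36 SE, FDR 0.0418). For Cox7a2, with 846, 1270.4, 942 and 759 CPM in arterioles, 534, 527, 475 and 169 in glomeruli, 687, 1269.5, 1305 and 943 in peritubular capillaries, 1042, 1343, 813 and 1100.0 in post-capillary venules and 1002, 916, 883 and 856 in whole kidney, the same held (log2 fold change -1.30 ± 0.39 SE, FDR 0.0462), and glomerular 100 lay far below the other glomerular libraries. Cox6b1, which lies at the contact of the complex IV dimer, stood at 465, 236, 459.5 and 891 CPM in arterioles, 537, 565, 478 and 353 in glomeruli and 1267, 949, 1478 and 1194 in peritubular capillaries. Cox6b1 levels in post-capillary venules were 671, 923, 602 and 1042 CPM and those in whole kidney 832, 919, 778 and 778. It was lower than in peritubular capillaries in glomeruli (log2 fold change -1.34 ± 0.40 SE, FDR 0.0483) and arterioles (log2 fold change -1.25 ± 0.40 SE, FDR 0.0391), although arteriole 100 lay among the whole kidney libraries. Cox7b, by contrast, stood at 272, 336, 256 and 337 CPM in arterioles, 278, 273, 268 and 174 in glomeruli, 257, 556, 799 and 739 in peritubular capillaries, 471, 635, 401 and 442 in post-capillary venules and 475, 515, 547 and 471 in whole kidney and was called in no comparison.

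**Figure D4:**
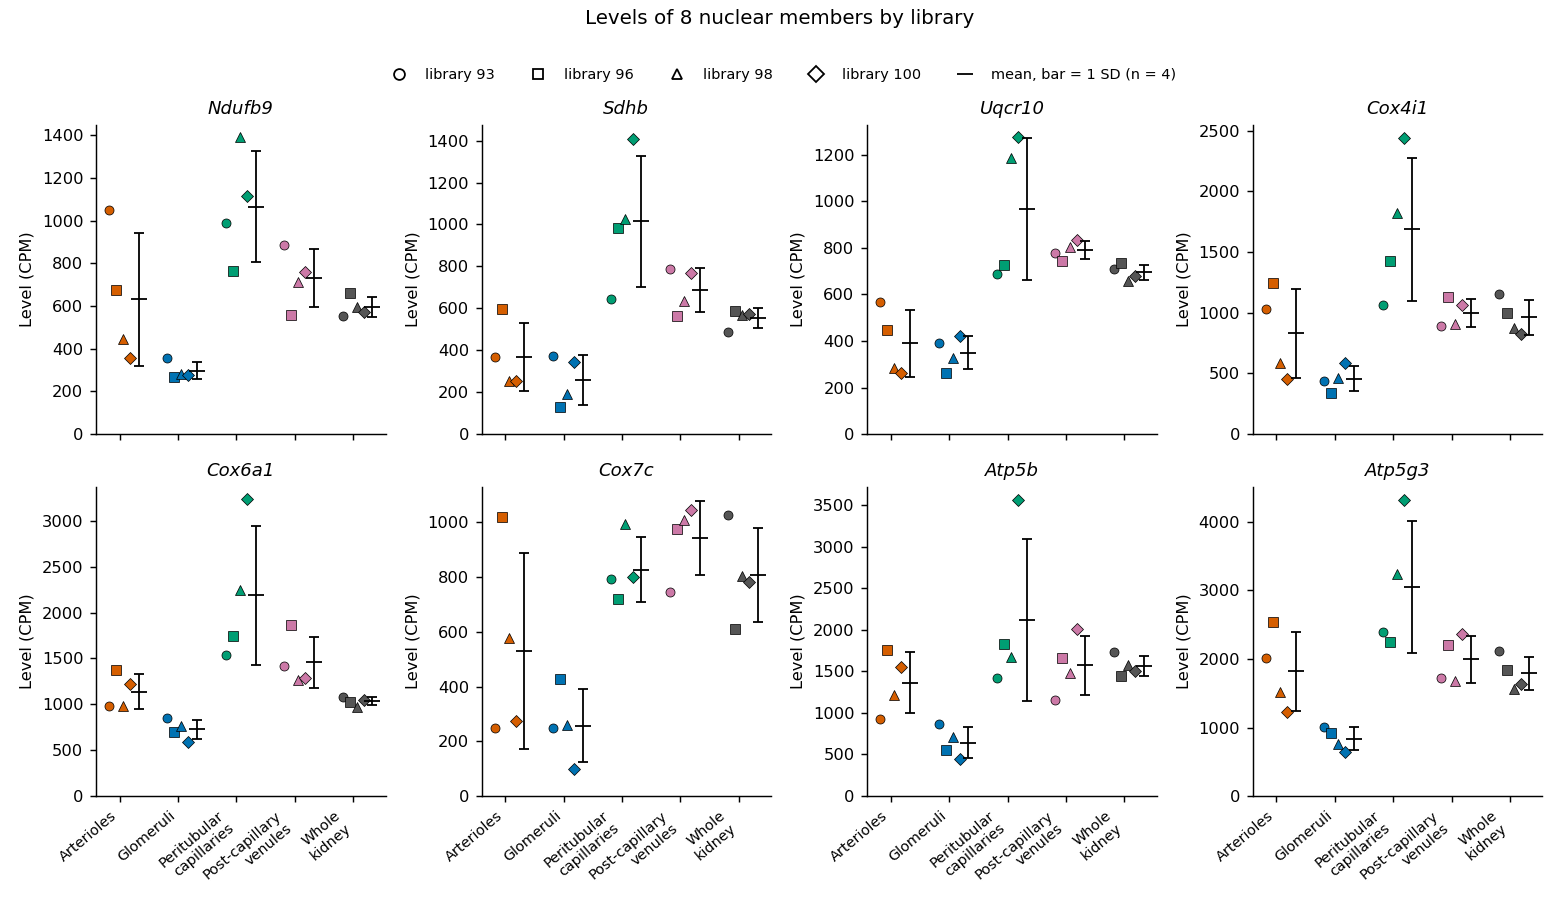
Levels of 8 nuclear members of complexes I to V in CPM on linear axes, 1 point per library with the mean and a bar of 1 SD for each of the 5 groups (n = 4). In all 8 panels the glomerular libraries lie below the peritubular capillary libraries, and in 6 of them (all but Ndufb9 and Cox7c) the highest of the 20 points is capillary 100.

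Other pairs of compartments gave fewer calls. Shares of all genes in this paragraph are those of the reported fits, and none is given for other fits, DESeq2 or an unadjusted p. Arterioles had 4 of the 90 nuclear members lower than peritubular capillaries (Ndufb8, Sdhb, Uqcr10 and Cox6b1) and 0 higher, a share near the 4.98% of all genes that were lower. The fit of all 20 libraries called 15 lower, and with DESeq2 size factors none of the 4 passed. Glomeruli had 4 lower than venules (Cox7c, Cox6c, Atp5md and Atp5g3), where 0.731% of all genes were lower, and 12 with all 20 libraries in the fit. Of the 4, the largest difference was in Atp5md, a small membrane subunit of ATP synthase (log2 fold change -2.43 ± 0.59 SE, FDR 0.0277). In that pair, 53 of the 90 had every glomerular library below every venule library, where 6.05% of all genes did, and the median was -1.02 against 0.04. Leaving out glomerular 98 or 100, or venule 96 or 100, left 0 of these 4 calls. Arterioles had 3 higher than glomeruli, Atp5a1 and Atp5g3 among them, where 1.33% of all genes were higher. The number was 6 with DESeq2 size factors, 8 with all 20 libraries in the fit and 17 by DESeq2, and 0 without arteriole 96, glomerular 98 or glomerular 100; none of the 3 kept its call when each library was left out in turn. Between arterioles and venules edgeR called 0 nuclear members, with 1 higher and 7 lower at an unadjusted p under 0.05 and 1 lower by DESeq2, and between peritubular capillaries and venules edgeR and DESeq2 called 0, with 1 higher at an unadjusted p under 0.05.

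Some start regions of nuclear members hold the letters of factors known to control mitochondrial genes. Promoters (250 bases before to 50 after the start, RefSeq, GRCm38.p6) were found for 77 of the 98 nuclear members, as 82 promoters, and 4 motifs were searched on both strands. GCATGCGC, bound by NRF1, occurred in 14.63% of the members' promoters and in 2.71% of all 32851 promoters. AAGATGGC, bound by YY1, occurred in 13.41% against 2.75%, AAGGTCA, bound by estrogen-related receptors, in 9.76% against 4.72%, and CCGGAAGT, bound by GABPA and other ETS factors, in 6.1% against 3.89%. At least 1 of them occurred in 40.24% of the members' promoters and 13.28% of all. The 250 bases before the start are shown for 3 genes that differed between glomeruli and peritubular capillaries, with motif letters in capitals; Cox6a1 and Sdhb hold the NRF1 letters (in Cox6a1 as overlapping matches on both strands) and Atp5g3 holds the estrogen-related receptor letters on the opposite strand.
Cox6a1, chr5:115348959-115349208, - strand: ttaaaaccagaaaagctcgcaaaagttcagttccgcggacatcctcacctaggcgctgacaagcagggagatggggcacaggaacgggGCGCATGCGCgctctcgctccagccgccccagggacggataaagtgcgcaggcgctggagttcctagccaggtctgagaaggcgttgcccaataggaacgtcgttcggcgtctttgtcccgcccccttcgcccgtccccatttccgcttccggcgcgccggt
Sdhb, chr4:140961021-140961270, + strand: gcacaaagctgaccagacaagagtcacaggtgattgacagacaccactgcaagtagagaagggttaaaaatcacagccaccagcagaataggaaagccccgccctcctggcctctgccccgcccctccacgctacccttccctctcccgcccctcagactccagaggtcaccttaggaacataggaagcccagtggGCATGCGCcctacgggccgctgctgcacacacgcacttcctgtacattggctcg
Atp5g3, chr2:73911327-73911576, - strand: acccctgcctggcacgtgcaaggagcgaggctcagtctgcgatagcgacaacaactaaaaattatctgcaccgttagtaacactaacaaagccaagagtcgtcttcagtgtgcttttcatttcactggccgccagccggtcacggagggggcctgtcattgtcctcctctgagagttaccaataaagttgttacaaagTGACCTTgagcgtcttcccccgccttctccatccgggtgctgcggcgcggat
No match to any of the 4 motifs stood in these 250 bases of Atp5b or Cox7c, which were called in the same comparison. A match is a description of the letters and does not show that a factor was bound.

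Several subunits of complex IV and ATP synthase exist as isoforms in different tissues, and the low-level isoforms Cox6a2, Cox7a1 and Cox6b2 were called in no comparison. Cox4i2, Cox8b and Cox7b2 did not pass the filter on low counts, and Cox8c had no count. Cox4i2, the isoform best known from lung, was at 0 in every peritubular capillary and venule library, reached 10.02 CPM in arteriole 93 and did not exceed 0.461 CPM in whole kidney. Among the heart and muscle isoforms, Cox6a2 ranged from 0 to 75.3 CPM over the 20 libraries, Cox7a1 from 0 to 143 CPM and Cox8b from 0 to 43.7 CPM. The testis isoforms Cox6b2 and Cox7b2 ranged from 0 to 225 and from 0 to 11.2 CPM, with the highest Cox6b2 level in arteriole 93. Cox7a2l, which takes part in joining complexes III and IV, stood at 9.17, 5.15, 124 and 45.1 CPM in arterioles, 158, 154, 114 and 76.0 in glomeruli and 41.1, 56.0, 8.98 and 2.15 in peritubular capillaries. Cox7a2l levels in post-capillary venules were 134, 64.4, 142 and 15.0 CPM and those in whole kidney 111, 126, 97.7 and 85.5. All 4 peritubular capillary libraries were below every glomerular and whole kidney library; the difference from whole kidney did not pass the test (log2 fold change -1.96 ± 0.92 SE, FDR 0.371). Ndufa4, a subunit now placed in complex IV though counted here in complex I by its symbol, stood at 94.6, 428, 138 and 5.89 CPM in arterioles, 66.7, 246, 107 and 36.2 in glomeruli, 359, 274, 268 and 295 in peritubular capillaries, 271, 309, 386 and 328 in post-capillary venules and 482, 331, 366 and 319 in whole kidney, and its hypoxia-linked relative Ndufa4l2 ranged from 0 to 47.4 CPM, highest in venule 98. Of the 3 genes for ATP synthase subunit c, Atp5g1 ranged from 55.5 to 621 CPM, Atp5g2 from 0 to 14.2 CPM and Atp5g3 from 647 to 4323 CPM, and Atp5g3 was the 1 called in any comparison.

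The core subunits of the complexes gave few calls against whole kidney. Ndufs1, which carries iron-sulfur clusters of complex I, stood at 8.53, 17.4, 33.9 and 122 CPM in arterioles, 52.2, 25.6, 60.6 and 93.6 in glomeruli and 198, 211, 142 and 174 in peritubular capillaries. Ndufs1 levels in post-capillary venules were 116, 91.5, 97.3 and 159 CPM and those in whole kidney 161, 131, 158 and 154; its log2 fold change was -1.73 ± 0.69 SE in arterioles and -1.38 ± 0.68 SE in glomeruli, and neither passed. Sdha, the flavoprotein of complex II, stood at 443, 194, 187 and 657 CPM in arterioles, 347, 239.5, 312 and 269 in glomeruli and 538, 459.7, 764 and 912 in peritubular capillaries. Sdha levels in post-capillary venules were 527, 436, 587 and 373 CPM and those in whole kidney 459, 388, 439 and 407, with no difference called. Ndufv1, which binds NADH, ranged from 30.6 to 1046 CPM, Uqcrc1, a core protein of complex III, from 13.4 to 1387 CPM, and Cox5a, a matrix-side subunit of complex IV, from 144 to 985 CPM, and none of them was called in any comparison. Cox5b, its partner, stood at 317, 1325, 377 and 390.5 CPM in arterioles, 233, 402, 242 and 174 in glomeruli, 450.4, 462, 744 and 1612 in peritubular capillaries, 393, 692, 617 and 700.3 in post-capillary venules and 444, 508, 449 and 423 in whole kidney, and was lower in glomeruli than in peritubular capillaries (log2 fold change -1.64 ± 0.50 SE, FDR 0.0494) with arteriole 96 far above the other arterioles. Atp5a1, the alpha subunit of ATP synthase, stood at 691, 2809, 1427 and 1298 CPM in arterioles, 619, 723, 628 and 431 in glomeruli and 1094, 1053, 1834 and 2248 in peritubular capillaries. Atp5a1 levels in post-capillary venules were 1140.5, 1317, 1268 and 1524 CPM and those in whole kidney 1416, 1003, 1234 and 1143. Glomeruli were below both peritubular capillaries (log2 fold change -1.37 ± 0.38 SE, FDR 0.0245) and arterioles, for which the log2 fold change of arterioles against glomeruli was 1.37 ± 0.38 SE (FDR 0.0398). Sdhc, a membrane anchor of complex II, ranged from 58.6 to 816 CPM and was not called. Sdhd, the other anchor, ranged from 0 to 89.4 CPM, and Uqcrfs1, the Rieske protein of complex III, ranged from 3.41 to 718 CPM with both extremes in arterioles.

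Mitochondrial rRNA followed another order of groups than mitochondrial mRNA. mt-Rnr1 and mt-Rnr2, the rRNAs of the small and large mitochondrial ribosome subunits, together took 1.28, 1.77, 1.86 and 1.80% of the counts in arterioles and 1.14, 1.59, 1.28 and 1.37% in glomeruli. They took 4.93, 4.84, 3.81 and 4.36% in peritubular capillaries, 3.26, 3.45, 2.88 and 2.92% in venules and 1.95, 2.04, 1.95 and 2.04% in whole kidney. Peritubular capillaries lay above every other group and venules above the other 3, whereas arterioles and glomeruli lay below whole kidney. The ratio of mitochondrial mRNA to rRNA counts was 1.31, 1.20, 1.44 and 0.922 in peritubular capillaries, 3.26, 2.99, 3.55 and 2.87 in glomeruli, 3.28, 2.90, 3.04 and 3.60 in arterioles and 3.57, 2.84, 3.67 and 3.40 in venules. All of these were below the 5.93, 6.0, 5.92 and 5.44 of whole kidney. Every compartment was thus lower than whole kidney without overlap, and peritubular capillaries were lower than the other compartments as well. Preparation differed between whole kidney and the compartments, and its part in this ratio was not tested. How these libraries captured mitochondrial rRNA was not examined, and the counts measure only what was captured.

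By edgeR, mt-Rnr2 rose in peritubular capillaries (log2 fold change 1.79 ± 0.17 SE, FDR 9.29e-09) and venules (log2 fold change 0.92 ± 0.16 SE, FDR 0.00279) and fell in glomeruli (log2 fold change -0.65 ± 0.16 SE, FDR 0.0168) against whole kidney. Between compartments it was lower in glomeruli than in peritubular capillaries (log2 fold change -2.44 ± 0.19 SE, FDR 9.96e-12) and higher in peritubular capillaries than in venules (log2 fold change 0.86 ± 0.18 SE, FDR 0.0103). The second of these ran against mt-Nd1 and mt-Nd4, which were lower in peritubular capillaries than in venules. mt-Rnr1 was lower in glomeruli than in peritubular capillaries (log2 fold change -1.38 ± 0.31 SE, FDR 0.00346) and venules (log2 fold change -1.62 ± 0.31 SE, FDR 0.00217), and against whole kidney it was not called.

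**Figure D5:**
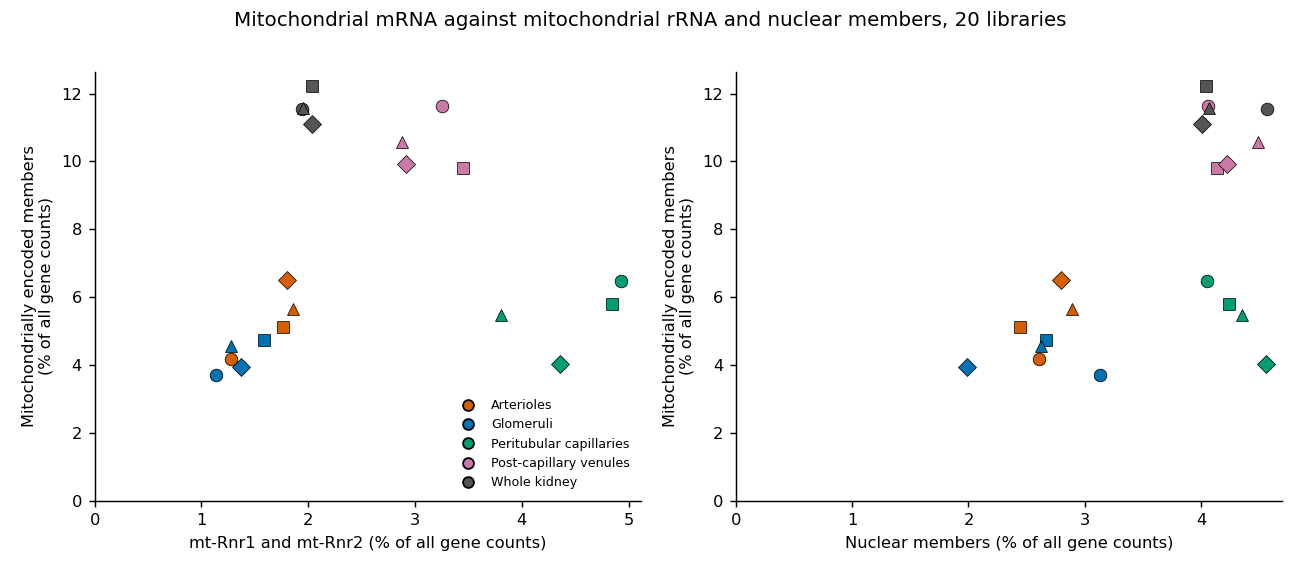
Percentage of gene counts on mitochondrially encoded members plotted against that on mt-Rnr1 and mt-Rnr2 (left) and against that on nuclear members (right), 1 point per library, coloured by group, all axes linear from 0. Peritubular capillary libraries have the highest rRNA shares, 3.81 to 4.93%, and lie below whole kidney and venules in mitochondrial mRNA at similar nuclear shares.

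The composition of the mitochondrial mRNA pool was largely alike between groups, with the exception of its 2 smaller components, which were singled out after their values were seen. Of all mitochondrially encoded counts, mt-Nd5 made up 3.28, 3.48, 3.56 and 4.85% in peritubular capillaries, 2.87, 2.7, 2.99 and 3.36% in venules, 2.98, 2.56, 3.21 and 2.98% in glomeruli, 2.17, 1.94, 2.75 and 2.33% in arterioles and 1.98, 1.92, 1.95 and 1.92% in whole kidney. mt-Co1 made up 4.0, 4.38, 5.0 and 4.22% in peritubular capillaries, 2.54, 3.38, 3.47 and 3.91% in venules, 4.09, 4.05, 3.14 and 3.52% in glomeruli, 2.21, 3.61, 3.58 and 2.60% in arterioles and 2.53, 2.40, 2.25 and 2.33% in whole kidney. For both genes, peritubular capillaries, venules and glomeruli lay above whole kidney without overlap, and arterioles overlapped with it. The shares of mt-Nd1, mt-Nd2, mt-Nd4 and mt-Cytb overlapped between each compartment and whole kidney. The end of mt-Co1 is shared with a pseudogene, as shown above, and that of mt-Nd5 is not.

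Genes that feed or build the pathway were taken from fixed lists and compared with whole kidney. The 17 tricarboxylic acid cycle genes had a median log2 fold change of -1.24 in glomeruli against 0.26 over all genes, and 1 was called lower there, where 1.5% of all genes were. None was called in arterioles (median 0.05), peritubular capillaries (0.56) or venules (-0.10). The 18 glycolysis genes had a median of -0.99 in glomeruli, 0.18 in arterioles, 0.23 in peritubular capillaries and 0.29 in venules. In glomeruli 3 were called lower and 0 higher, in arterioles 2 lower and 2 higher, and in the other compartments 0. Of all genes, 5.55% were called lower and 5.78% higher in arterioles, and 1.5% lower and 1.59% higher in glomeruli. Pkm (log2 fold change 2.24 ± 0.51 SE, FDR 0.00285) and Gpi1 (log2 fold change 1.85 ± 0.53 SE, FDR 0.0219) rose in arterioles, and Ldhb (log2 fold change -1.47 ± 0.39 SE, FDR 0.0247) fell in glomeruli. Pgam1 was called lower in both, at 0, 0.161, 0 and 0 CPM in arterioles and 0, 0, 0 and 0 in glomeruli against 8.10, 6.91, 7.47 and 7.37 in whole kidney, too few counts in the compartments for a useful fold. Among the 14 carriers and porins found, 1 rose in arterioles, a share near the 5.78% of all genes called higher there. This was the adenine nucleotide carrier Slc25a4 (log2 fold change 1.89 ± 0.43 SE, FDR 0.00322), with 714, 1455, 664 and 646 CPM against 217, 262, 239 and 219 in whole kidney. Mpc2, part of the mitochondrial pyruvate carrier, fell in arterioles (log2 fold change -1.81 ± 0.51 SE, FDR 0.0196) and glomeruli (log2 fold change -1.98 ± 0.52 SE, FDR 0.0227).

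Few genes of mitochondrial gene expression and assembly passed, and the counts in arterioles are to be read against the 5.55% of all genes called lower there. In arterioles, 1 of 76 tested mitochondrial ribosomal protein genes fell, Mrpl35 (log2 fold change -4.17 ± 1.28 SE, FDR 0.0317). Of 34 electron carriers and assembly factors, 1 was called lower, the copper chaperone Cox11, with 0, 0, 0.112 and 0.178 CPM in arterioles and 8.51, 11.2, 12.1 and 11.52 in whole kidney, too few counts for a useful fold. Among 25 tested genes of mitochondrial DNA and RNA handling, Polg2 and Fastkd5 were called lower, and both were at 0 in every arteriole library. None of these 3 lists had a call in glomeruli, peritubular capillaries or venules. None of the 16 regulators of mitochondrial content was called in any compartment. Ppargc1a, a coactivator that raises mitochondrial content, stood at 14.9, 129, 2.36 and 71.9 CPM in arterioles, 9.02, 48.1, 40.2 and 14.7 in glomeruli, 26.5, 35.0, 69.3 and 86.8 in peritubular capillaries, 85.3, 11.8, 17.4 and 74.7 in post-capillary venules and 82.5, 72.7, 71.1 and 54.4 in whole kidney, and the lowest and the highest of the 20 levels were both in arterioles. Tfam, which packs and transcribes mitochondrial DNA, stood at 24.5, 199, 53.8 and 23.2 CPM in arterioles, 23.1, 48.0, 7.64 and 28.9 in glomeruli and 32.2, 40.6, 9.68 and 21.3 in peritubular capillaries. Tfam levels in post-capillary venules were 28.4, 61.4, 6.48 and 51.7 CPM and those in whole kidney 30.5, 23.7, 35.6 and 31.0, with arteriole 96 above all others. The tRNA gene mt-Tt was called higher in arterioles, with 108, 21.1, 8.43 and 222 CPM against 2.33, 3.80, 1.78 and 1.79 in whole kidney. It was 1 of 14 rRNA and tRNA genes tested, a share near the 5.78% of all genes called higher in arterioles. In peritubular capillaries and venules, mt-Rnr2 was the 1 gene called in any of these lists.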

How the data were processed

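The authors deposited whole-number read counts per gene from QuantSeq 3′ mRNA libraries of 20 samples (5 groups of 4). By their methods, reads were trimmed with bbduk, aligned with STAR to GRCm38.p6 and counted with htseq-count. The submitters' processing notes name STAR 2.7, HTSeq 0.13 and also GRCm39. The sources used here give no strand or multimapper setting. Of 168 columns, 148 were of other samples and were not used. The column of capillary 96 carries extra letters of unknown meaning. Column numbers (93, 96, 98, 100) are not tied to labelled replicates.

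From these counts, edgeR 4.0.16 (R 4.3.3, quasi-likelihood test, TMM, filterByExpr) was fitted to all 20 libraries for each compartment against whole kidney, and to the 16 microdissected libraries for the 6 pairs of compartments, with Benjamini-Hochberg adjustment over all genes tested and calls at an FDR under 0.05. Alternatives were DESeq2 1.42.0, its size factors, other filters, other sets of libraries and leaving out each library. Counts of calls from these alternatives, and counts at an unadjusted p, have no share of all genes beside them unless one is printed. Scripts were tested on simulated data. Genes named were all mitochondrially encoded members, for each complex and compartment up to 3 nuclear members by p among those called (plus up to 2 that moved against the complex median), fixed lists of isoforms and core subunits, and up to 3 genes per pathway list, of which called ones are given, except that results of some genes are not reported here. Between compartments, called members were named after their values were seen, as were Ppargc1a and Tfam. The members and all lists were chosen with earlier results of these data known. Sequences came from GRCm38 and RefSeq.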

Additional observations from a re-analysis of the deposited data

Results flagged for a closer look

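In 170 groups of 4 libraries (34 quantities in 5 groups), 13 held 1 library whose distance from the nearest of the other 3 passed Dixon's 95% limit for its share of the range, and chance flags about 1 in 20 groups. Kidney 93 had a nuclear share of 4.57% of counts, against 4.01 to 4.07% in the other 3 whole kidney libraries. Venule 93 had a ratio of mitochondrially encoded to nuclear counts of 2.86, against 2.35 to 2.37. Arteriole 93 had 1.28% of its counts on mt-Rnr1 and mt-Rnr2, against 1.77 to 1.86%. Kidney 100 had a ratio of mitochondrial mRNA to rRNA of 5.44, against 5.92 to 6.0.

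Among single mitochondrially encoded genes, mt-Co1 stood at 1551 CPM in glomerular 96, against 1090 to 1155 CPM in the other glomerular libraries, and at 3369 CPM in capillary 98, against 2566 to 2620 CPM. mt-Nd1 stood at 32233 CPM in venule 100, against 22578 to 24057 CPM, and at 23293 CPM in kidney 93, against 20612 to 20880 CPM. For nuclear genes, Cox5b stood at 1325 CPM in arteriole 96, against 317 to 390 CPM, and Cox7a2 at 169 CPM in glomerular 100, against 475 to 534 CPM. Ndufv3 stood at 205 CPM in glomerular 100, against 267 to 279 CPM. Ndufb9 stood at 358 CPM in glomerular 93, against 268 to 284 CPM, and Cox6c at 953 CPM in kidney 96, against 1033 to 1041 CPM.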

How the results depend on the processing

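Calls below are members past an FDR of 0.05, mitochondrially encoded (mt) of 8 and nuclear of 90 or 91 in the reported fits. With DESeq2 size factors, arterioles against whole kidney had 0 mt calls (3 reported), peritubular capillaries 0 (1), arterioles against venules 0 (3) and capillaries against venules 0 (2). Nuclear calls became 6 for arterioles against glomeruli (3), 0 for arterioles against capillaries (4) and 1 for glomeruli against venules (4). DESeq2 gave 0, 0, 0 and 0 mt calls in those 4 comparisons, 1 for arterioles against capillaries (0) and 2 for glomeruli against capillaries (6), and nuclear calls of 8 for arterioles (2), 5 for glomeruli (3), 17 for arterioles against glomeruli and 1 for arterioles against venules (0). Scaling without mitochondrial genes gave 7 nuclear calls in glomeruli. With no filter, nuclear calls were 8 in glomeruli and 1 for arterioles against capillaries, and mt calls were 4 in capillaries, 1 for arterioles against capillaries and 4 for capillaries against venules. A filter on the mean gave 22 nuclear calls in glomeruli, 4 mt and 4 nuclear in capillaries and 1 mt in venules. Fitting only the 8 libraries compared gave 54 nuclear calls in glomeruli, 4 in arterioles, 9 in capillaries and 6 in venules, and 4 mt calls in capillaries and 2 in venules. With all 20 libraries in the fit, nuclear calls were 8 for arterioles against glomeruli, 15 for arterioles against capillaries, 2 for arterioles against venules, 38 for glomeruli against capillaries (19) and 12 for glomeruli against venules. A log2 fold above 1 in addition left 0 mt calls in arterioles and capillaries. The cause of these changes was not tested, other than the number of genes or libraries fitted.

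Leaving out each library in turn gave mt calls of 0 to 4 in arterioles (0 without arteriole 98), 4 to 6 in glomeruli, 0 to 1 in capillaries (0 without capillary 100 or kidney 96), 3 to 4 for arterioles against glomeruli, 0 to 1 for arterioles against capillaries (1 without arteriole 93), 1 to 5 for arterioles against venules (5 without arteriole 96), 4 to 6 for glomeruli against capillaries, 6 for glomeruli against venules and 0 to 2 for capillaries against venules (1 without capillary 96 or venule 93). Nuclear calls were 0 to 6 in arterioles, 0 to 4 in glomeruli, 0 to 4 for arterioles against glomeruli (1 without glomerular 93 or 96), 1 to 8 for arterioles against capillaries (8 without arteriole 93, 1 without capillary 98, 2 without arteriole 98 or capillary 100), 7 to 16 for glomeruli against capillaries (8 without glomerular 98 or capillary 98, 9 and 11 without glomerular 93 and 96, 12 without capillary 100) and 0 to 2 for glomeruli against venules. In the other comparisons 0 was called each time. Of 65 single-gene results, 21 kept direction and call under every alternative, 25 kept both without each library, and none was reversed.

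Without mitochondrial counts in the denominator, nuclear shares were 2.89% in arterioles, 4.77% in capillaries, 4.90% in venules and 4.83% in whole kidney; structural subunits alone took 2.01%, 1.94% (glomeruli), 3.10%, 3.11% and 3.09%, with mitochondrial to structural ratios of 2.67, 2.25, 1.76, 3.38 and 3.77 in arterioles, glomeruli, capillaries, venules and whole kidney. Deviations of libraries with the same number were nearly uncorrelated: 0 of 40 such pairs had a correlation above 0.1 (mean 0.0079, highest 0.0714). This does not show whether such libraries came from the same mouse. With the number as a replicate block, nuclear calls in glomeruli were 8 and mt calls in capillaries 3, and the other counts of calls stayed within 1.5 times. Low counts limit mt-Atp6, mt-Atp8, mt-Co2, mt-Co3 and mt-Nd4l, which were not tested.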
